A study of Mus musculus with 2 samples.

Results

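The transcripts described here are 9 genes of perivenous hepatocytes, the cells around the central vein of the liver lobule, that are known to depend on Wnt signaling: Oat, Glul, Slc1a2, Rhbg, Lgr5, Axin2, Tbx3, Cyp1a2 and Cyp2e1. They were taken from a fixed list of symbols, and all 9 were found among the 32285 genes counted in each of 2 liver libraries, which were made by single-cell RNA-seq from mice. The list was drawn up after the ratio of HKO over WT in hepatocyte barcodes had been seen for Oat, Glul and Slc1a2. Differences between the libraries over all hepatocyte barcodes are therefore given as a description of why the genes were looked at. Every gene was followed inside and outside the hepatocyte barcodes with most Glul, and Glul itself in those classes only reflects how they were chosen.

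The study used single-cell RNA-seq to see how removal of miR-33 from hepatocytes changes liver cell populations in metabolic dysfunction-associated steatohepatitis (MASH). The WT library came from wild-type mice, and the HKO library from littermates with miR-33 floxed alleles and Cre driven by the Albumin promoter, which is active in hepatocytes; the labels call this genotype AlbCRE. Both groups were male, received CD-HFD, a high-fat diet deficient in choline, for 6 months from 8 weeks of age, and were pooled as 3 livers per library. Livers were perfused with collagenase, and hepatocytes and sorted non-parenchymal cells were mixed 1:1, so shares of barcodes do not give the makeup of the tissue. There was 1 library per genotype and thus no replicate, no test and no p-value. Intervals are at 95% and hold counting error alone, without the spread among animals or preparations. miR-33 itself was not analysed here, so the deletion was not checked in these counts.

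Blood enters the liver lobule at the portal vein and leaves at the central vein, and hepatocytes express different genes along that path. Endothelial cells near the central vein release Wnt ligands and R-spondin 3, which stabilize β-catenin in adjacent hepatocytes and switch on the perivenous program, while the portal side makes urea and glucose. The innermost hepatocytes take up glutamate and ammonia that escaped the urea cycle and make glutamine with glutamine synthetase, the product of Glul.

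Among the 9 genes, 4 handle ammonia and glutamate. Glul encodes glutamine synthetase (chromosome 1, 153899944 to 153909723, plus strand). Oat encodes ornithine aminotransferase, a mitochondrial enzyme that turns ornithine into a precursor of glutamate (chromosome 7, 132557478 to 132576398, minus strand). Slc1a2 encodes a glutamate transporter of the plasma membrane (chromosome 2, 102658659 to 102790784, plus strand), and Rhbg an ammonia transporter (chromosome 3, 88242874 to 88254709, minus strand). Lgr5 encodes a receptor for R-spondins (chromosome 10, 115450311 to 115587780, minus strand). Axin2 is a negative feedback gene of the Wnt pathway (chromosome 11, 108920349 to 108950783, plus strand). Tbx3 encodes a transcription factor induced by β-catenin (chromosome 5, 119670669 to 119684724, plus strand). Cyp1a2 (chromosome 9, 57676937 to 57683703, minus strand) and Cyp2e1 (chromosome 7, 140763739 to 140774987, plus strand) encode cytochrome P450 enzymes that oxidize drugs and toxicants. Positions are those of the protein-coding gene in GENCODE M21 on GRCm38, the same assembly as mm10.

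Promoters are shown because these genes share an input, β-catenin with TCF and LEF factors, whose motif has the core CTTTGA or CTTTGT. Of the 9 genes, 6 matched a RefSeq promoter of 300 bases (GRCm38.p6, 250 bases before the start site and 50 after it, given in the direction of the gene), and 3 of the 6 held at least 1 match on either strand. Over all 32851 promoters of that length the share was 31.2%. Capitals mark a match, and TCAAAG is CTTTGA on the opposite strand. The promoters with a match were those of Slc1a2 (chr2:102706188-102706487, plus strand, a start site within the gene as annotated by GENCODE), Cyp1a2 (chr9:57683606-57683905, minus strand) and Cyp2e1 (chr7:140763569-140763868, plus strand). The promoter of Oat (chr7:132576349-132576648, minus strand), the gene with the largest difference between the libraries among the 9, held none and is shown beside them. Those of Glul and Axin2 held none either. A match or its absence in these windows says nothing of binding.
Slc1a2: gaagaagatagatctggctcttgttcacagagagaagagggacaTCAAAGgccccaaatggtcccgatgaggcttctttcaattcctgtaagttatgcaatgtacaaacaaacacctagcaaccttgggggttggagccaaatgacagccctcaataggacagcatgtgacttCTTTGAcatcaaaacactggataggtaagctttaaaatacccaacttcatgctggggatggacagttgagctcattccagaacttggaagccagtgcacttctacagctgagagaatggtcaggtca
Cyp1a2: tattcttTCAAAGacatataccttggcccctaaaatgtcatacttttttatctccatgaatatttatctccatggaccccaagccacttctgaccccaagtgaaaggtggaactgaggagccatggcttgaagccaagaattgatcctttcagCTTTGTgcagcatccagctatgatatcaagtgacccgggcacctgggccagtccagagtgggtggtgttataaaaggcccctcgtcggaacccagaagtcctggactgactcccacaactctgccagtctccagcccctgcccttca
Cyp2e1: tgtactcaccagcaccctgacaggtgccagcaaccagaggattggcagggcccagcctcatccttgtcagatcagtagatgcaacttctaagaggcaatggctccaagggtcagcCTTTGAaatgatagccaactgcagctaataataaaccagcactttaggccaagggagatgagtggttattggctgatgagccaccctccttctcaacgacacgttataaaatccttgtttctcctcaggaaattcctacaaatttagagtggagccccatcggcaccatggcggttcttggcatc
Oat: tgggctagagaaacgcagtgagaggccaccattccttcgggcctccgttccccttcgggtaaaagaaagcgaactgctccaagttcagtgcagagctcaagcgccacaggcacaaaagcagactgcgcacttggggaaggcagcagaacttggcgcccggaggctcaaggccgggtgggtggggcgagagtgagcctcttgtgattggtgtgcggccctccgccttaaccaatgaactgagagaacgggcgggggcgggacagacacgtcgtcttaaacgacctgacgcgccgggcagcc

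Sites for miR-33-5p are shown because this miRNA is absent from HKO hepatocytes by design. Its seed, in capitals, pairs with CAATGCA in a target transcript. The seed matches sought in the 3′ UTR were the 8mer CAATGCAA, the 7mer-m8 CAATGCA and the 7mer-A1 AATGCAA. Of the 9 genes, Slc1a2 and Lgr5 each held 1 site, against 13.9% of 20739 genes with at least 1. The Slc1a2 site was a 7mer-A1 at base 8979 of a 3′ UTR of 9250 bases, and the Lgr5 site a 7mer-m8 at base 1585 of 1703. Neither Oat nor Glul held a site in its 3′ UTR of 692 and 1541 bases.
miR-33-5p: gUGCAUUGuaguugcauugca
Slc1a2 site: gactaatgAATGCAAagagacta
Lgr5 site: aatttcccCAATGCAttaactgt

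The libraries differed in depth. The WT library held 130451427 unique molecular identifiers (UMIs, 1 for each captured RNA molecule) in 30078 barcodes, and the HKO library 52563185 in 20000. Hepatocyte barcodes, with at least 5000 UMIs and in clusters with fewer than 3 markers of any other cell type, numbered 1974 in WT (median 19266 UMIs) and 1622 in HKO (median 10614 UMIs). Another 365 WT and 368 HKO barcodes of that depth belonged to non-hepatocyte clusters. Some hepatocyte clusters came almost wholly from a single library, such as clusters 0 (285 WT and 8 HKO barcodes), 5 (306 and 21), 15 (12 and 131) and 16 (25 and 283). Barcodes shared between the libraries were not counted, since the WT barcode sequences were not used here.

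A barcode was called Glul-high when at least 5 Glul UMIs remained after it was thinned at random to 5000 UMIs, nominally 1000 counts per 1e+06 UMIs (CPM). These barcodes numbered 31 of 1974 in WT (1.57%, 1.07 to 2.22) and 80 of 1622 in HKO (4.93%, 3.93 to 6.10) (ratio of shares 3.14, 2.05 to 4.92). With the threshold at 3 UMIs the numbers were 77 and 99 and the ratio of shares fell to 1.56 (1.15 to 2.14), and at 10 UMIs it was 3.49 (2.14 to 5.88). Just outside the threshold, 3 thinned Glul UMIs were found in 30 WT and 13 HKO barcodes and 4 UMIs in 16 and 6. Just inside it, 5 UMIs were found in 4 and 2 barcodes and 6 UMIs in 1 and 5. HKO thus had more barcodes far above the threshold and fewer close below it. The HKO share was higher in all 3 depth ranges, with 0.911% in WT and 6.15% in HKO from 5000 to 10000 UMIs, 1.46% and 4.24% from 10000 to 20000, and 2.01% and 2.80% above. The gap was widest in the shallowest range. The intervals overlapped in the middle range (0.591 to 2.99 in WT, 2.84 to 6.07 in HKO) and in the deepest (1.21 to 3.12 in WT, 1.04 to 6.00 in HKO). Among non-hepatocyte barcodes, 5 of 365 in WT (1.37%) and 20 of 368 in HKO (5.43%) passed the same threshold, at lower summed Glul levels of 738 and 1541 CPM, so the threshold alone does not mark a hepatocyte state. Counted by Slc1a2 in place of Glul, at least 2 thinned UMIs were found in 33 WT (1.67%) and 84 HKO barcodes (5.18%) (ratio 3.10, 2.05 to 4.79). Of these, 25 and 64 were Glul-high.

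The label perivenous held for the Glul-high barcodes in both libraries. Of 25 other genes known as perivenous, 23 were at least 2-fold higher in Glul-high than in other hepatocyte barcodes in each library, beside 4.12% of all genes measured in WT and 4.48% in HKO, and none was lower by that much. Lhpp, Slc13a3 and Avpr1a in both libraries, and Slc22a3 in HKO, were under 10 CPM outside and so met the minimum for a measured gene, a mean of 10 CPM over the classes compared, through the Glul-high barcodes. Among the genes of the list at 10 CPM or more outside, 20 of 22 in WT and 19 of 21 in HKO were 2-fold higher. The ratios ran from 2.06 for Aldh1a1 to 41.0 for Slc13a3 in WT and from 2.41 for Nr1i3 to 54.5 for Slc13a3 in HKO. They included Cyp2a5, Cyp2c29, Cyp2c37, Cyp2c50, Cyp2c54, Cyp3a11, Cyp7a1, Cyp27a1, Gulo, Lhpp, Lect2, Slc13a3, Slc22a3, Aldh1a1, Gstm3, Rgn, Nr1i3, Ahr, Prodh, Blvrb, Avpr1a and Rnase4, while Car3 had ratios of 1.77 and 1.30. Of the 25 genes, 1 had a ratio below 1 in each library. Of 20 periportal genes, 19 were measured and 19 were at least 2-fold lower in each library, beside 4.06% and 3.23% of all genes, among them Cps1, the first enzyme of the urea cycle, with ratios of 0.127 in WT and 0.103 in HKO. Others were Ass1, Asl, Pck1, Cyp2f2, Hal, Sds, Sdsl, Gls2, Aldh1b1, Hsd17b13, Ctsc, Pigr, Uroc1, Etnppl, Gldc, Ftcd and Hsd17b6, and the highest ratio was that of Pigr, at 0.397 and 0.404. The summed level of 7 general hepatocyte markers was lower in Glul-high barcodes, 39612 CPM in WT against 30871 CPM in HKO, than over all hepatocyte barcodes, 64843 and 52665 CPM. Markers of other cell types were at most 64.0 CPM per class, and some were above the level outside. The 8 endothelial markers summed to 55.4 CPM (8 of 8 with a UMI) in WT Glul-high barcodes and 23.2 CPM (7 of 8) in HKO, against 17.6 and 14.3 CPM in the other hepatocyte barcodes. The 8 macrophage markers summed to 3.78 and 19.9 CPM, against 22.5 and 13.5 CPM outside. The 9 monocyte and dendritic markers summed to 31.5 CPM (3 of 9) in WT and 3.31 CPM (2 of 9) in HKO, against 16.5 and 6.36 CPM outside. The 5 erythroid markers summed to 50.4 and 64.0 CPM, against 82.4 and 116 CPM outside, and the 6 cholangiocyte markers to 12.6 and 8.83 CPM, with Epcam, Krt19 and Krt7 at 0. All 5 neutrophil markers were at 0 in both libraries, and the 8 stellate markers summed to 6.30 CPM in WT and were all at 0 in HKO. The part of these traces in the results was not tested.

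Over all hepatocyte barcodes, Oat, Slc1a2 and Glul, the genes whose ratios were known when the list was drawn up, had the largest ratios of the 9. Oat was 101.7 CPM in WT against 386 CPM in HKO (ratio 3.80, 3.66 to 3.94). Slc1a2 was 29.6 and 89.0 CPM, with a ratio of 3.00 (2.80 to 3.22), and Glul was 179 and 399 CPM, with a ratio of 2.23 (2.16 to 2.30). Among the 7077 genes measured, Oat had the second highest ratio, Slc1a2 ranked 6 and Glul 18. Rhbg was 2.75 and 4.02 CPM (1.46, 1.10 to 1.94). The R-spondin receptor gene Lgr5 was 4.94 CPM in WT against 10.0 CPM in HKO (ratio 2.03, 1.67 to 2.45). The direction for Lgr5 depended on depth, with ratios of 6.77 (3.11 to 17.5) from 5000 to 10000 UMIs, 2.42 (1.67 to 3.59) from 10000 to 20000 and 0.483 (0.259 to 0.831) above. Over the same ranges Oat went from 5.25 and 4.83 to 2.37 and Slc1a2 from 5.10 and 3.81 to 1.73. Tbx3 was 7.73 and 11.97 CPM (1.55, 1.31 to 1.82), whereas the feedback gene Axin2 was 2.64 and 2.65 CPM (1.00, 0.715 to 1.39). The direction for Axin2 differed with depth as well, with 1.07 CPM in WT against 3.13 CPM in HKO from 5000 to 10000 UMIs. It was 1.69 and 2.89 CPM from 10000 to 20000 and 2.98 and 1.78 CPM above. The first of these ranges rested on 4 WT and 17 HKO UMIs. Cyp1a2 was 56.9 and 88.5 CPM (1.55, 1.46 to 1.65), and Cyp2e1 was 1700 and 1863 CPM (1.10, 1.08 to 1.11).

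In all, 4 of the 9 genes were at least 2-fold higher in HKO and 0 were 2-fold lower, beside 0.382% and 0.876% of all genes measured; since this contrast had a part in the choice of the genes, nothing is read from that count. The mean CPM minimum of 10 for a gene to be measured was met by 5 of the 9, of which 3 were 2-fold higher. The median log2 ratio was 0.64 over the 9 and -0.01 over all genes measured. Ratios of this kind were also seen in low-depth droplets, barcodes near the commonest depth of each library (2570 UMIs in WT and 813 in HKO). Their RNA was used as an estimate of RNA free in the suspension, but shallow cells or nuclei among them were not told apart from it. There, Oat was 112 CPM in WT against 280 CPM in HKO (2.49), Glul 185 and 324 CPM (1.75), and Slc1a2 21.1 and 68.8 CPM (3.25).

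**Figure D1:**
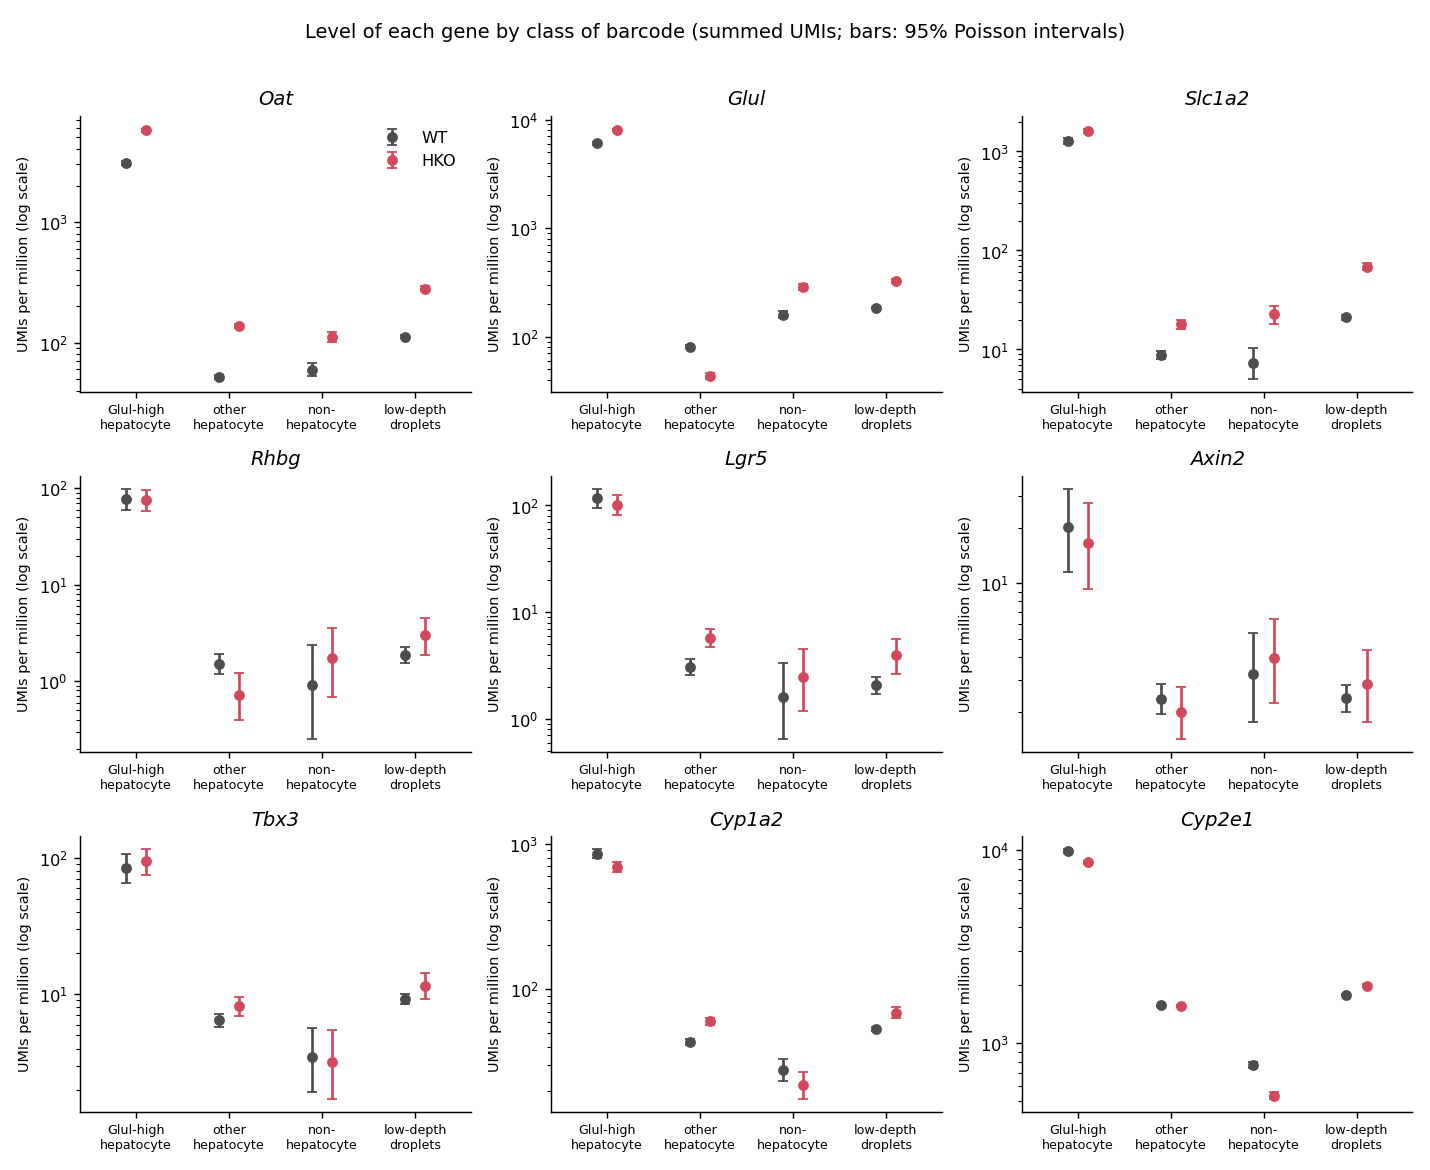
CPM on a log axis for each of the 9 genes in Glul-high hepatocyte, other hepatocyte, non-hepatocyte and low-depth barcodes of the WT (grey) and HKO (red) libraries; points are summed levels and bars 95% Poisson intervals. Every gene is highest in Glul-high barcodes in both libraries, and Oat stands at 3074 CPM there in WT and 5754 CPM in HKO.

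Within each library, all 8 genes other than Glul were concentrated in Glul-high barcodes. In WT, Slc1a2 was 1276 CPM in Glul-high and 8.82 CPM in other hepatocyte barcodes (ratio 145, 129 to 162). The ratio was 59.0 (55.8 to 62.4) for Oat, 50.8 (35.5 to 72.4) for Rhbg and 38.2 (29.1 to 49.9) for Lgr5. Cyp1a2 (19.6, 17.9 to 21.4), Tbx3 (13.1, 9.89 to 17.1), Axin2 (8.56, 4.73 to 14.5) and Cyp2e1 (6.33, 6.19 to 6.48) were less confined to these barcodes. In HKO the ratio was 104 (58.2 to 201) for Rhbg, 89.7 (79.7 to 101) for Slc1a2, 42.2 (40.2 to 44.2) for Oat and 17.7 (13.3 to 23.5) for Lgr5. It was 11.5 (8.73 to 15.1) for Tbx3, 11.5 (10.4 to 12.7) for Cyp1a2, 8.27 (4.24 to 15.4) for Axin2 and 5.56 (5.42 to 5.70) for Cyp2e1. Cyp2e1 and Axin2 thus had the smallest ratios in both libraries. The median log2 ratio of the 8 was 4.77 in WT and 3.83 in HKO against 0.03 and 0.13 over all genes measured. The share of genes at least 2-fold higher was 4.12% of 7111 measured in WT and 4.48% of 7117 in HKO. The 8 are not read against these shares. Rhbg, Lgr5, Tbx3, Axin2 and, in WT, Slc1a2 were under 10 CPM outside, so they met the minimum through the Glul-high barcodes, and Axin2 in HKO did not meet it.

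The genes were found together in single barcodes. After thinning to 5000 UMIs, Glul-high barcodes had a UMI of a median of 4 of the other 8 genes in WT and 5 in HKO, whereas other hepatocyte barcodes had 1 and 1. At least 3 of the 8 were detected in 31 of 31 WT and 72 of 80 HKO Glul-high barcodes, against 157 of 1943 (8.08%) and 157 of 1542 (10.2%) outside. At least 5 were detected in 15 (48.4%) and 45 (56.3%), against 4 and 21 barcodes outside. Among the 4 genes with many barcodes of at least 2 thinned UMIs in both libraries, Slc1a2 pointed to Glul most closely at that cut. Of the barcodes with at least 2 thinned Slc1a2 UMIs, 75.8% in WT and 76.2% in HKO were Glul-high, compared with 25.2% and 32.6% for Oat, 25.3% and 30.6% for Cyp1a2, and 2.26% and 10.5% for Cyp2e1. The same cut is stricter for a gene of lower level. Of the barcodes with at least 5 thinned Oat UMIs, 77.8% in WT and 51.2% in HKO were Glul-high.

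Detection in single barcodes differed by gene. In Glul-high barcodes, at least 1 thinned UMI was found in 96.8% (WT) and 96.3% (HKO) for Oat, 87.1% and 86.3% for Slc1a2, 83.9% and 72.5% for Cyp1a2, and 100% in both for Cyp2e1. The shares were 32.3% and 27.5% for Lgr5, 29.0% and 33.8% for Tbx3, 19.4% and 27.5% for Rhbg, and 6.45% and 10% for Axin2. Most Glul-high barcodes thus had no Lgr5, Tbx3, Rhbg or Axin2 UMI at this depth, which does not show that the gene was silent. Outside, Oat was detected in 18.6% and 22.4% of hepatocyte barcodes, below the 21.6% and 32.3% of non-hepatocyte barcodes, whose median depths before thinning were 7950 and 8752 UMIs. Slc1a2 outside (3.81% and 4.54%) was likewise below the non-hepatocyte shares of 5.48% and 8.70%, so a single UMI of either gene is not read as expression. In summed levels, Oat in HKO and Slc1a2 in WT were higher outside than in non-hepatocyte barcodes, and the reverse held in the other library. Oat was 52.1 CPM in WT and 136 CPM in HKO outside, against 60.0 and 111 CPM in non-hepatocyte barcodes, and Slc1a2 was 8.82 and 18.0 CPM against 7.35 and 22.6 CPM. Lgr5 outside (1.39% and 2.01%) and Cyp1a2 outside (16.4% and 17.5%) were above the non-hepatocyte shares of 0.822% and 1.09%, and of 11.5% and 6.25%.

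In summed levels inside Glul-high barcodes, Oat differed most of the 9 genes between the libraries. Like Slc1a2 and Glul, Oat had been chosen by a ratio that these barcodes share in. Oat was 3074 CPM in WT against 5754 CPM in HKO (ratio 1.87, 1.78 to 1.96). Per barcode, Oat ran from 0 to 12427 CPM with a median of 2464 in WT, and from 0 to 14864 CPM with a median of 5291 in HKO. The barcodes of the libraries overlapped over nearly the whole range, but the quartiles lay higher in HKO as the median did. The lower quartile was 693 CPM in WT and 1555 CPM in HKO, and the upper 3561 and 8630 CPM. Slc1a2 was 1276 and 1615 CPM (1.27, 1.17 to 1.37), with per-barcode medians of 1129 and 1489 CPM and highest values of 3667 and 5429. Rhbg was 76.8 and 75.1 CPM (0.977, 0.681 to 1.40). Glul, by which the barcodes were chosen, was 6055 and 8052 CPM (1.33, 1.28 to 1.38), with medians of 3874 and 6559 CPM. With the threshold at 3 thinned Glul UMIs, the ratio inside became 3.33 for Oat and 2.24 for Slc1a2, and 3 of the 9 genes were past 2-fold. The higher Oat in HKO was seen in each depth range, with 2061 CPM in WT against 4626 CPM in HKO from 5000 to 10000 UMIs, 2940 and 6370 CPM from 10000 to 20000, and 3153 and 6604 CPM above. These ranges held few Glul-high barcodes in 1 library or the other, 5, 7 and 19 in WT and 46, 28 and 6 in HKO.

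For the R-spondin receptor gene Lgr5 and the Wnt target genes Axin2 and Tbx3 inside Glul-high barcodes, no difference was detectable in summed levels. Lgr5 was 117 CPM in WT against 102 CPM in HKO (0.867, 0.643 to 1.17). Axin2 was 20.1 and 16.6 CPM from 16 and 15 UMIs (0.822, 0.378 to 1.77), and Tbx3 was 84.4 and 93.8 CPM (1.11, 0.798 to 1.56). These 3 intervals include 1. The ratios depended on how barcodes were weighted. With every barcode thinned to 5000 UMIs, Lgr5 had a ratio of 1.82 (0.908 to 4.04) from 10 WT and 47 HKO UMIs, level with the 1.82 (1.64 to 2.02) of Oat. Thinned, Axin2 stood at 1.55 (0.309 to 14.98) and Tbx3 at 1.40 (0.678 to 3.15). In barcodes of 5000 to 20000 UMIs the ratios were 1.25 for Lgr5, 2.19 for Axin2 and 1.75 for Tbx3, and with full-depth barcodes weighted equally 1.06, 1.08 and 1.16. Above 20000 UMIs that of Lgr5 was 0.513 (0.237 to 0.992), from 19 WT and 6 HKO barcodes. Whether these genes differed as Oat did thus cannot be told from these counts. The cytochromes were lower in HKO in summed levels, but within depth ranges this held for Cyp2e1 in none of the 3 and for Cyp1a2 in 2. Cyp1a2 was 855 CPM in WT against 693 CPM in HKO (ratio 0.811, 0.726 to 0.905), with per-barcode medians of 873 and 545 CPM. Cyp2e1 was 9900 and 8611 CPM (0.870, 0.843 to 0.898), yet its per-barcode medians were 7692 and 7727 CPM. With the threshold at 3 thinned Glul UMIs both cytochrome ratios turned, to 1.43 and 1.32. From 5000 to 10000 UMIs, from 10000 to 20000 and above, the ratios of Cyp2e1 were 1.29, 1.35 and 1.06, all above 1, and those of Cyp1a2 were 0.617, 1.28 and 0.873. Within cluster 14 the ratio of Cyp2e1 was 1.03 (0.984 to 1.08). None of the 9 genes was past 2-fold in either direction (0 higher, 0 lower), beside 7% and 4.39% of 7132 genes measured. The median log2 ratio was -0.03 over the 9 and 0.03 over all genes, and Oat ranked 654 from the highest.

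**Figure D2:**
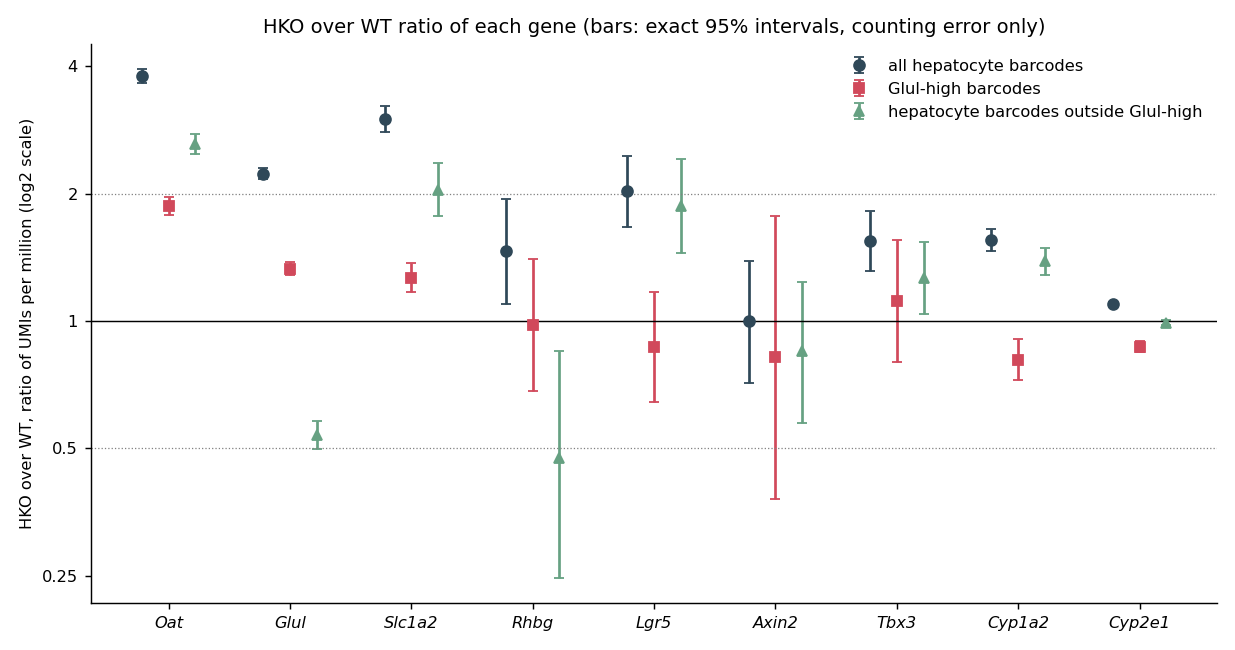
HKO over WT ratio of CPM on a log2 axis for the 9 genes, over all hepatocyte barcodes (circles), Glul-high barcodes (squares) and hepatocyte barcodes outside Glul-high (triangles), with exact 95% intervals for counting error; dotted lines mark 2-fold. Oat lies above 1 in all 3 classes (3.80, 1.87 and 2.62), whereas Lgr5 lies at 0.867 inside Glul-high and at 1.87 outside.

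Outside Glul-high barcodes the genes parted. Oat was 52.1 CPM in WT against 136 CPM in HKO (ratio 2.62, 2.48 to 2.77), and Slc1a2 was 8.82 and 18.0 CPM (2.04, 1.77 to 2.36). Glul, which drew the line between the classes, was 80.9 CPM in WT against 43.6 CPM in HKO (0.538, 0.499 to 0.580). Rhbg was 1.51 and 0.719 CPM from 72 and 14 UMIs (0.475, 0.247 to 0.850). Lgr5 was 3.07 and 5.75 CPM (1.87, 1.45 to 2.41), Tbx3 6.45 and 8.16 CPM (1.27, 1.04 to 1.54) and Axin2 2.35 and 2.00 CPM (0.851, 0.575 to 1.23). Cyp1a2 was 43.6 and 60.4 CPM (1.38, 1.29 to 1.49), and Cyp2e1 1563 and 1549 CPM (0.991, 0.978 to 1.00). Of the 9, 5 met the CPM minimum. Of these 5, 2 (Oat and Slc1a2) were at least 2-fold higher in HKO, beside 0.353% of 7081 genes measured. Nothing is read from that count, since both genes were chosen by a ratio that these barcodes share in, and Slc1a2, at 8.82 CPM in WT, met the minimum through HKO. In the other direction, 0 were 2-fold lower, beside 0.96%. Rhbg was past 2-fold lower but under the minimum. These ratios also depended on depth. Above 20000 UMIs, Slc1a2 was 7.81 CPM in WT against 3.49 CPM in HKO (0.447, 0.265 to 0.711) and Lgr5 3.06 against 0.735 CPM from 113 and 4 UMIs (0.240, 0.0642 to 0.631), both opposite to the summed ratio. Oat kept its direction but was closer, at 51.2 against 65.0 CPM (1.27, 1.13 to 1.42), compared with ratios of 2.37 and 3.37 in the shallower ranges. That range held 947 WT and 214 HKO hepatocyte barcodes. Axin2 was lower in HKO only there, at 2.63 CPM in WT against 1.29 CPM in HKO. It was 1.08 and 2.16 CPM from 5000 to 10000 UMIs and 1.57 and 2.35 CPM from 10000 to 20000. The median log2 ratio was 0.34 over the 9 and -0.01 over all genes.

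Most of these levels were below those of low-depth droplets. Of the 9 genes, 8 were lower in hepatocyte barcodes outside Glul-high than in low-depth droplets of the same library, in both libraries. The distance was wide for some genes, as in HKO, where Glul was 43.6 CPM outside against 324 CPM in droplets, Slc1a2 18.0 against 68.8 CPM and Oat 136 against 280 CPM, and small for others, such as Cyp2e1, at 1549 against 1979 CPM. The exception was Lgr5, at 3.07 CPM outside against 2.07 CPM in droplets in WT and 5.75 against 3.93 CPM in HKO. With the low-depth profile of each library subtracted, the ratio outside Glul-high was 2.81 for Oat and 1.97 for Slc1a2, so that 1 gene in place of 2 was past 2-fold higher. Rhbg outside rested on few UMIs. Its ratio was 0.209 (0.0246 to 0.797) among barcodes with under 5% mitochondrial UMIs and 0.982 (0.445 to 2.06) among the others, and it was 0.974 without clusters 0 and 5.

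More Glul-high barcodes and higher levels inside the classes both entered the ratios over all hepatocyte barcodes. If WT levels in each class are kept and only the UMI share of Glul-high barcodes is changed, from 1.64% to 4.44%, the ratio over all hepatocyte barcodes becomes 1.83 for Oat, 2.20 for Slc1a2 and 1.65 for Lgr5. If the WT share is kept and only the levels are changed, it becomes 2.25 for Oat, 1.49 for Slc1a2 and 1.48 for Lgr5. For Rhbg (1.77 and 0.705), Cyp2e1 (1.14 and 0.979) and Axin2 (1.19 and 0.847) the share gave a ratio above 1 and the levels a ratio below 1. For Tbx3 (1.28 and 1.24) and Cyp1a2 (1.40 and 1.24) both were above 1. Among the 8 genes other than Glul, whose levels in the classes follow from their choice, Oat was the only one for which the levels gave the larger ratio. Accordingly, 49.6% of hepatocyte Oat UMIs in WT and 66.2% in HKO came from Glul-high barcodes, compared with 70.7% and 80.7% for Slc1a2, and 9.55% and 20.5% for Cyp2e1. The split between share and levels is tied to this threshold. From 3 thinned Glul UMIs the ratio of shares was 1.56, and the ratio inside was 3.33 for Oat and 2.24 for Slc1a2. The split was not repeated there.

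Binned by Glul, the genes rose at different points. With 0 thinned Glul UMIs (1377 WT and 1289 HKO barcodes), Oat was 43.3 CPM in WT against 92.9 CPM in HKO. It was 63.3 and 247 CPM at 1 Glul UMI, 104 and 754 CPM at 2 to 4, 1273 and 1658 CPM at 5 to 19, and 4843 and 7112 CPM at 20 or more. The libraries differed most below the threshold, at 2 to 4 Glul UMIs, where 171 WT and 66 HKO barcodes fell. In HKO, Slc1a2 was nearly as high at 5 to 19 Glul UMIs, with 1534 CPM (1377 to 1705), as at 20 or more, with 1642 CPM (1547 to 1741). In WT it went on rising, from 867 CPM (777 to 964) to 1678 CPM (1553 to 1809). Lgr5 was lower in the last bin than in the one before in HKO, with 213 CPM (157 to 282) at 5 to 19 Glul UMIs and 64.7 CPM (47.0 to 86.8) at 20 or more. In WT these bins were not resolved, with 125 CPM (92.1 to 165) and 110 CPM (79.8 to 147). Rhbg in HKO, in contrast, rose from 17.7 CPM (4.83 to 45.4) to 94.1 CPM (72.5 to 120) over these last bins. In WT it was 53.4 CPM (33.0 to 81.6) and 99.9 CPM (71.3 to 136), with intervals that overlap. Cyp1a2 (452 and 222 CPM, then 1251 and 850 CPM) and Cyp2e1 (7925 and 5113 CPM, then 11840 and 9771 CPM) also went on rising. The last bins held 16 and 15 barcodes in WT and 25 and 55 in HKO.

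**Figure D3:**
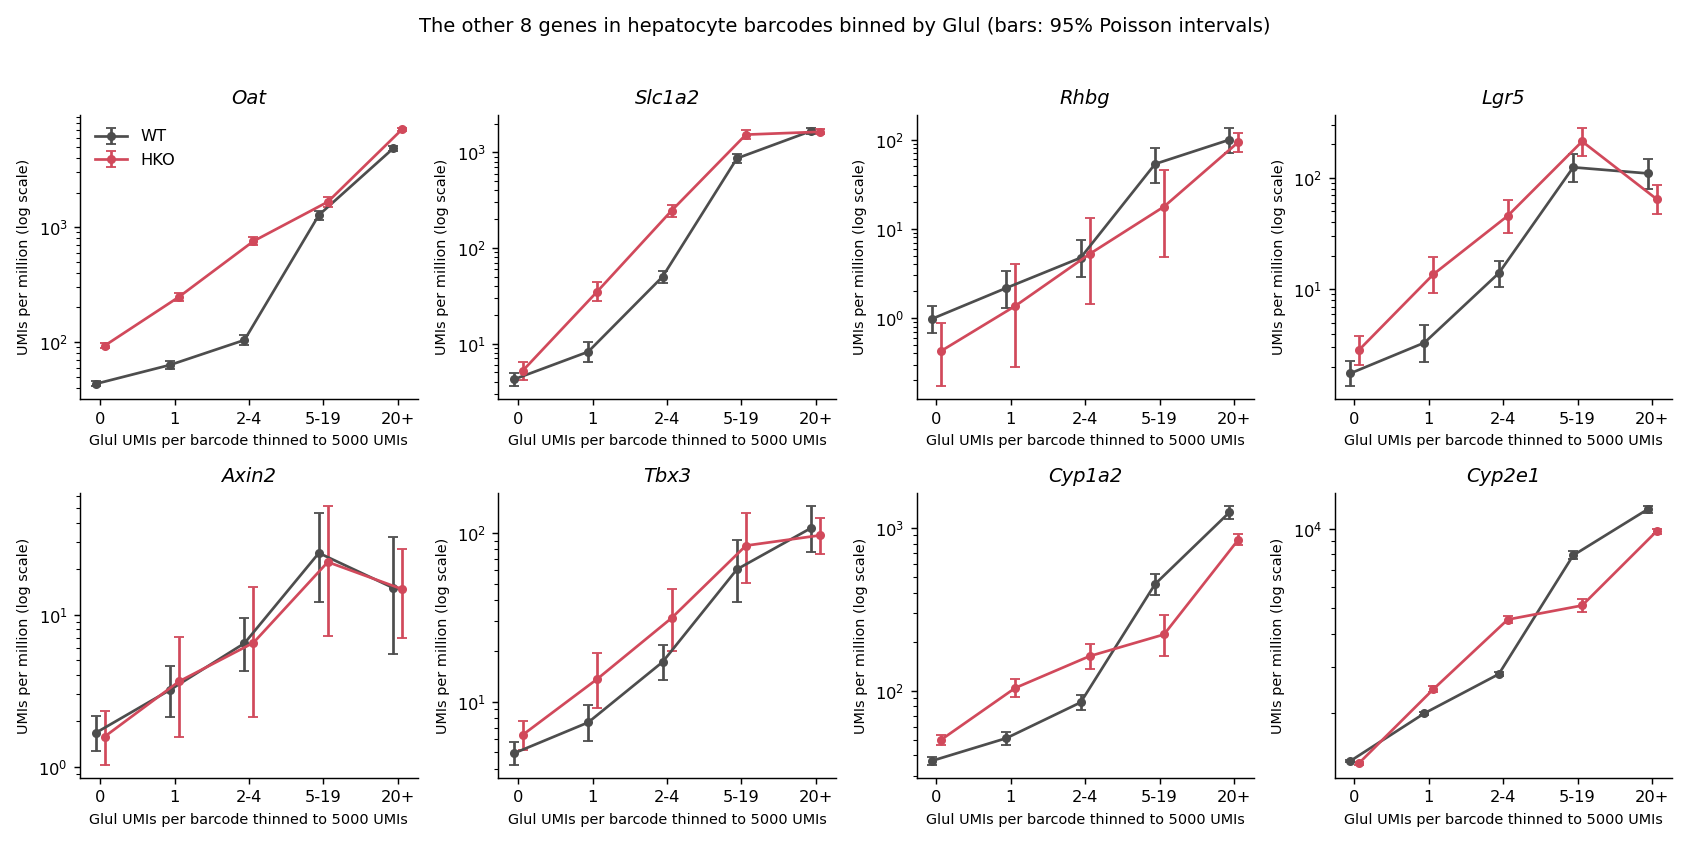
CPM on a log axis for the other 8 genes in hepatocyte barcodes binned by Glul UMIs after thinning to 5000 UMIs, in WT (grey) and HKO (red), with 95% Poisson intervals. Oat climbs from 43.3 CPM in WT against 92.9 CPM in HKO to 4843 and 7112 CPM, while Lgr5 in HKO is 213 CPM at 5 to 19 Glul UMIs and 64.7 CPM at 20 or more.

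Among Glul-high barcodes, Oat went with Glul and with the cytochromes, not with Lgr5. Between Oat and Glul, Spearman's rho was 0.75 in WT (n = 31) and 0.76 in HKO (n = 80), and Pearson's r on log CPM was 0.72 and 0.75. For Oat and Cyp2e1, rho was 0.63 and 0.54, and for Oat and Cyp1a2 it was 0.59 and 0.55. For Oat and Lgr5 it was -0.13 and -0.22, and for Oat and Slc1a2 0.33 and 0.03. Cyp1a2 and Cyp2e1 had a rho of 0.43 in WT and 0.75 in HKO, and Slc1a2 and Lgr5 of 0.20 and 0.44. These values describe barcodes of a single library that share its free RNA and differed in depth before thinning, and Glul was also the gene that chose them.

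**Figure D4:**
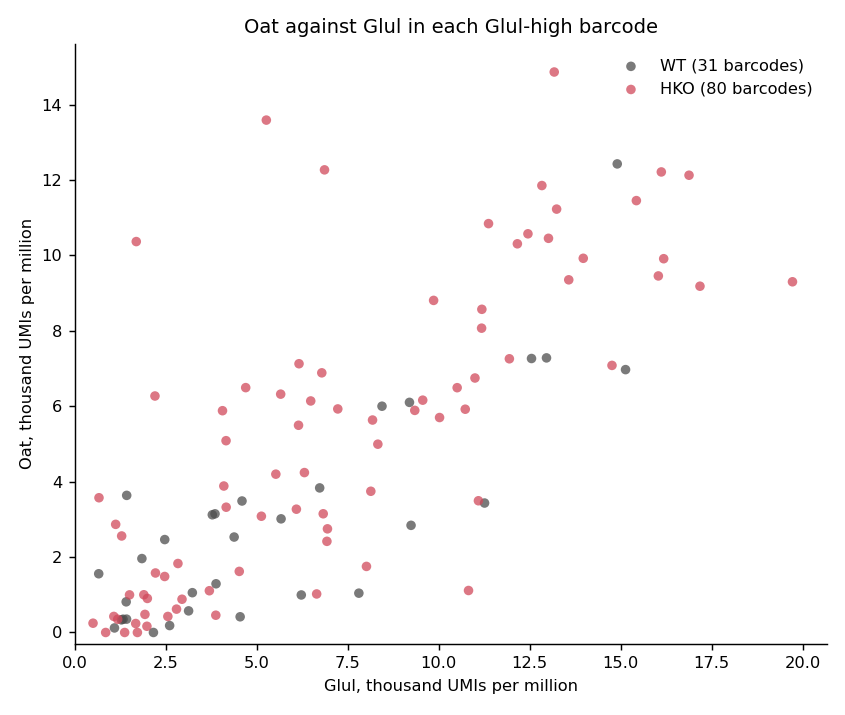
Oat against Glul in 1000 CPM for each of the 31 WT (grey) and 80 HKO (red) Glul-high barcodes. Barcodes of both libraries overlap, with per-barcode Oat medians of 2464 CPM in WT against 5291 CPM in HKO.

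High Oat also reached beyond high Glul. With the same threshold of at least 5 thinned UMIs applied to Oat, Oat-high barcodes numbered 27 in WT (1.37%) and 125 in HKO (7.71%) (ratio of shares 5.63, 3.69 to 8.89). Of these, 77.8% (57.7 to 91.4) were Glul-high in WT and 51.2% (42.1 to 60.2) in HKO. Thus 6 WT (0.304%) and 61 HKO (3.76%) barcodes were Oat-high without being Glul-high, and 21 (1.06%) and 64 (3.95%) were both. Non-hepatocyte barcodes were Oat-high in 2 of 365 in WT (0.548%) and 3 of 368 in HKO (0.815%). Barcodes that were only Oat-high carried 19.02% of hepatocyte Oat UMIs in HKO and 4.27% in WT.

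The Oat-high only barcodes had the cytochromes but little Glul. Their periportal genes were low in HKO, whereas the 6 WT barcodes held more of them. Cyp2e1 was 6938 CPM in WT against 8470 CPM in HKO, Cyp1a2 259 and 336 CPM, and Slc1a2 67.7 and 169 CPM, with Glul at 148 and 192 CPM. The 25 other perivenous genes summed to 16498 and 16476 CPM in them, and the 20 periportal genes to 7652 and 3531 CPM, against 11866 and 11113 CPM for the periportal genes in barcodes that were neither and 2222 and 1763 CPM in those that were both. The opposite pattern, Glul-high only, was found in 10 WT and 16 HKO barcodes. There Oat was 459 and 529 CPM, Slc1a2 1335 and 2080 CPM, Lgr5 152 and 279 CPM, Cyp1a2 328 and 88.2 CPM, and Cyp2e1 5371 and 2888 CPM. These barcodes differed in RNA quality between the libraries, with a median mitochondrial share of 35.5% in WT, where 8 of 10 fell in cluster 1, and 3.47% in HKO, where 9 of 16 fell in cluster 4. The part of that in their values was not tested. Oat-high was defined after the values had been seen.

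Barcodes were also grouped by Cyp2e1, which extends farther from the central vein than Glul. HKO barcodes lay more toward both ends of the Cyp2e1 range. After thinning, 14.5% of WT and 35.0% of HKO hepatocyte barcodes had 0 Cyp2e1 UMIs, and 2.84% (56) and 7.09% (115) had 40 or more (ratio of shares 2.499, 1.80 to 3.504). In between, 5 to 19 UMIs were found in 37.3% and 14.5%. Per-barcode quartiles of Cyp2e1 were 224, 901 and 1959 CPM in WT and 68.7, 232 and 1850 CPM in HKO, although the summed levels were nearly the same. Non-hepatocyte barcodes differed likewise at the low end. At least 1 thinned Cyp2e1 UMI was found in 90.4% of them in WT and 62.5% in HKO, against 85.5% and 65.0% of hepatocyte barcodes. Their per-barcode medians were 593 and 183 CPM. The part of free RNA in the low end was not tested.

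In the bin of highest Cyp2e1, the Oat-high share was larger in HKO, and for the Glul-high share no difference was detectable. With 40 or more Cyp2e1 UMIs, 17 of 56 WT (30.4%) and 38 of 115 HKO barcodes (33.0%) were Glul-high (ratio 1.09, 0.600 to 2.06). Oat-high were 15 of 56 (26.8%) and 69 of 115 (60.0%) (ratio 2.24, 1.27 to 4.22). Summed Oat in this bin was 1388 CPM in WT against 3404 CPM in HKO (2.45, 2.33 to 2.58). Glul was 2484 and 3582 CPM (1.44, 1.38 to 1.50), Slc1a2 was 460 and 726 CPM (1.58, 1.44 to 1.73), and Cyp1a2 had a ratio of 1.13 (1.02 to 1.24). The bin has no upper end, and Cyp2e1 itself was higher there in HKO (1.11, 1.09 to 1.14). From 20 to 39 UMIs, 5.11% and 9.20% were Glul-high and 5.11% and 18.4% Oat-high. In the top bin the interval of the Glul-high ratio reaches beyond 2-fold and overlaps that of the Oat-high ratio, and the difference between the 2 ratios was not tested. This grouping was chosen after the values had been seen.

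**Figure D5:**
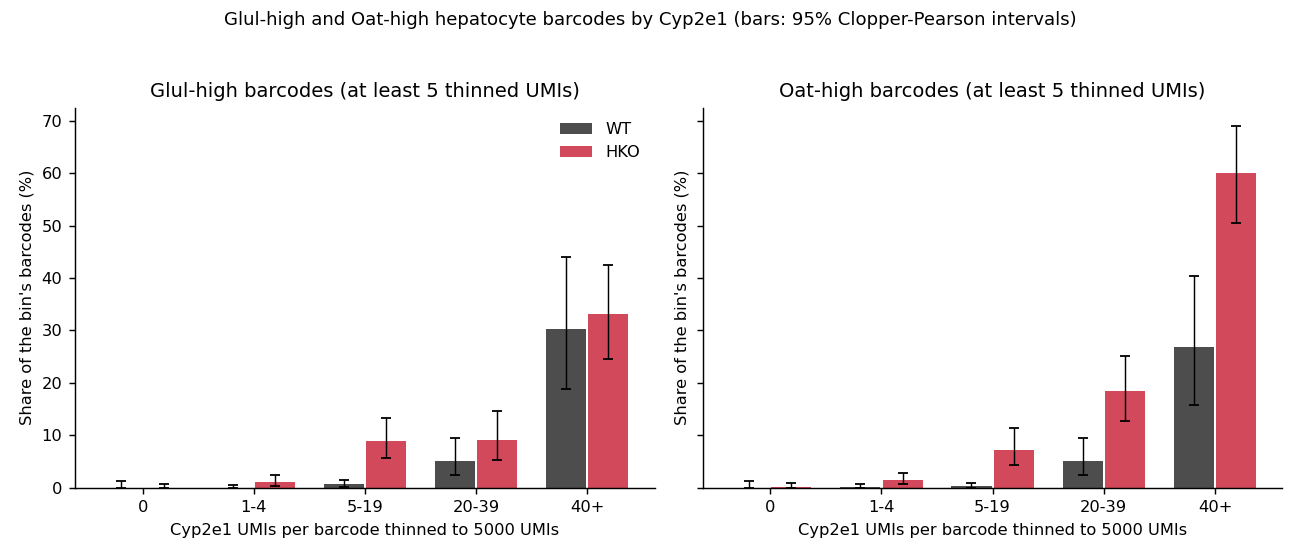
Share (%) of hepatocyte barcodes that are Glul-high (left) or Oat-high (right) in bins of Cyp2e1 UMIs after thinning to 5000 UMIs, in WT (grey) and HKO (red), with 95% Clopper-Pearson intervals. In the top bin 30.4% of WT and 33.0% of HKO barcodes are Glul-high, whereas 26.8% and 60.0% are Oat-high.

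The Glul-high barcodes of the libraries did not fall in the same clusters, which were made without the 9 genes. Of 31 WT barcodes, 14 were in cluster 1 and 10 in cluster 14; of 80 HKO barcodes, 5 and 46. Within cluster 14, the Oat ratio of HKO over WT in Glul-high barcodes was 1.56 (1.46 to 1.66) and that of Cyp1a2 was 0.657. Within cluster 1 the Oat ratio was 0.880 (0.652 to 1.17), so the higher Oat in HKO was not seen there, and the Slc1a2 ratio was 1.61. Median mitochondrial shares were 26.9% and 32.0% in cluster 1 and 9.72% and 10.98% in cluster 14. Split at 5% mitochondrial UMIs, Oat was higher in HKO on both sides, with ratios of 2.98 below (5 WT and 28 HKO Glul-high barcodes) and 1.83 from 5% up (26 and 52). For Tbx3 in these barcodes the ratio was 2.69 (1.02 to 8.98) below, from 5 WT and 26 HKO UMIs. From 5% up it was 0.976 (0.672 to 1.42). Outside Glul-high, the Oat ratios were 3.09 and 2.86 and those of Lgr5 3.79 and 1.49. The part of mitochondrial RNA in these ratios was not tested beyond this split, which was made after the values had been seen.

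Of the other genes of the pathway, from lists that leave out the 9, most of those measured stayed within 2-fold between the libraries, and Lrp5 and Notum were lower in HKO. Over all genes measured, 0.382% were 2-fold higher and 0.876% lower. Of a list of 9 Wnt ligands, R-spondins and genes for Wnt processing and release, none reached the CPM minimum in hepatocyte barcodes, where Wls, Wnt5a and Porcn had the most UMIs, at 1.51 and 1.23, 1.36 and 1.28, and 1.47 and 0.981 CPM. Of 12 receptor genes and their regulators, 7 were measured, 0 were 2-fold higher in HKO and 1 was lower, the coreceptor gene Lrp5 with 26.1 CPM in WT against 12.8 CPM in HKO (0.492, 0.429 to 0.562). It was lower inside Glul-high barcodes too (0.446, 0.275 to 0.709). Lrp6, another coreceptor, was 71.4 and 74.6 CPM, and Lgr4, a receptor for R-spondins, 63.3 and 68.0 CPM. Of 15 genes of the β-catenin destruction complex and effectors, 9 were measured and none was past 2-fold; Tcf7l2, a TCF factor, was 134 and 166 CPM, and the kinase genes Csnk1a1 and Gsk3b were 123 and 150 CPM and 107 and 131 CPM. Of 16 Wnt target and feedback genes, 4 were measured and 1 was lower, Notum, a secreted inhibitor of Wnt ligands, with 15.8 and 7.85 CPM (0.495, 0.415 to 0.588), which met the minimum through WT. Ccnd1, which encodes cyclin D1, was 65.997 and 39.5 CPM. Rnf43 and Znrf3, ligases that remove Wnt receptors and stand on both lists, were 30.4 and 36.2 CPM and 48.4 and 56.9 CPM.

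Several of these genes were, like the 9, higher in Glul-high barcodes. In Glul-high over other hepatocyte barcodes, 3 receptor-list genes were past 2-fold in each library, beside the 4.12% of all genes measured in WT and 4.48% in HKO. Rnf43 and Znrf3 had ratios of 5.04 and 2.70 in WT and 3.73 and 2.23 in HKO, and Lrp5 of 2.83 and 2.68. Among the target list, 4 of 5 measured genes were higher in WT and 5 of 6 in HKO, but Tnfrsf19 in both libraries, and Notum and Nkd1 in HKO, were under 10 CPM outside and met the minimum through the Glul-high barcodes. Of those at 10 CPM or more outside, 3 of 4 in WT and 2 of 3 in HKO were higher. Tnfrsf19 had ratios of 14.0 and 19.5 and Notum of 4.00 and 4.56, whereas Ccnd1 was lower, at 0.151 and 0.0804. Nkd1, a feedback inhibitor of the pathway, had 10 UMIs in WT and 22 in HKO in Glul-high barcodes and 7 and 3 outside. Of the β-catenin effectors, Tcf7l1 was lower (0.314 and 0.162), and Bcl9l, a coactivator, was past 2-fold in HKO (2.79). Of 21 other genes of ammonia, glutamate, ornithine and proline metabolism, 14 were measured over all hepatocyte barcodes and none was past 2-fold between the libraries. Glud1, glutamate dehydrogenase, was 835 CPM in WT against 770 CPM in HKO, and the amino acid transporter gene Slc38a4 was 614 and 661 CPM. In Glul-high over other barcodes, 2 of 15 were higher in each library, the neutral amino acid transporter Slc1a4 (12.7 and 20.5, from 2.18 and 1.08 CPM outside, so that it met the minimum through the Glul-high barcodes) and proline dehydrogenase Prodh (3.20 and 2.77), and 4 were lower (beside 4.06% and 3.23% of all genes), among them the glutaminase Gls2 (0.158 and 0.157), Otc of the urea cycle (0.400 and 0.352) and the transaminase Got1 (0.416 and 0.385). Of 8 genes around the aryl hydrocarbon receptor, an inducer of Cyp1a2, 3 were measured and none was past 2-fold. Ahr itself was 37.2 and 32.2 CPM, its partner Arnt 51.4 and 42.5 CPM and its target Tiparp 37.3 and 24.6 CPM. The Glul-high ratio of Ahr was 4.21 in WT and 3.91 in HKO, and that of Nqo1, another target, was 2.41 in HKO, from 7.80 CPM outside, also under the minimum there. Inside Glul-high barcodes Nqo1 was 8.82 CPM in WT and 18.8 CPM in HKO, with an interval of the ratio from 0.839 to 6.07.

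The genes whose distribution was most like that of Glul were ranked among 6003 genes by the smaller of their ratios, Glul-high over other hepatocyte barcodes, in both libraries. Ranked genes had a mean of at least 10 CPM over all hepatocyte barcodes and at least 10 UMIs in the Glul-high barcodes of each library. Slc13a3 and Tnfrsf19, with means of 4.36 and 3.32 CPM, were below that and were not ranked. The highest was Lhpp, which encodes a phosphatase, with 27.2 in WT and 25.2 in HKO. It was followed by the cytochrome gene Cyp2a5 (27.6 and 23.5), the cytochrome gene Cyp2c37 (14.9 and 25.2), the adhesion receptor gene Adgrv1 (17.5 and 13.9) and Gulo, which encodes the last enzyme of vitamin C synthesis (11.1 and 14.6). Rdh9 (12.9 and 11.01), Cyp2c29 (13.4 and 9.63), Gstm2 (8.67 and 15.2), the noncoding RNA Airn (8.52 and 8.48) and Cyp2c50 (7.34 and 11.6) completed the first 10. None of these 10 reached the ratios of Slc1a2 or Oat. Between the libraries, inside Glul-high barcodes, Gstm2, a glutathione transferase, was higher in HKO (2.28, 1.89 to 2.76), Adgrv1 was lower (0.527, 0.428 to 0.648), and the other 8 lay between these.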

How the data were processed

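The deposited values were UMI counts per gene and barcode without normalization, made by the authors with Cell Ranger (7.1.0 in the matrix header) on mm10, and the submitters' processing notes also name R 3.0 and Seurat 3. Options of the counting step are not given in the sources used here. Both libraries were used in full, and 0 columns of per-sample values were left out.

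Barcodes with at least 5000 UMIs, at least 300 genes and at most 50% mitochondrial UMIs were kept (2385 WT and 2023 HKO). Scrublet, as included in scanpy 1.11.5, marked under 0.5% of them, so the top-scoring 0.8% per 1000 barcodes were left out as doublets instead (46 and 33). Barcodes of both libraries were clustered together with the Leiden method (2000 variable genes without the 9 genes and without other zonation genes, 30 principal components, 15 neighbours, resolution 1). Clusters with fewer than 3 markers of every other class, each in at least 10% of barcodes and 2-fold above the rest, were called hepatocyte. A symbol for Tf and for 1 gene of the Wnt target list was not matched.

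UMIs were summed per class and library and scaled to CPM. Ratios have exact conditional, CPM exact Poisson and shares Clopper-Pearson intervals at 95%. A gene was measured at a mean CPM of at least 10. The interval code was tested on simulated data. Python 3.11.15, numpy 2.4.6, scipy 1.17.1 and pandas 2.3.3 were used.

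The 9 genes, the gene lists and the thresholds were chosen with earlier results of these data known. All 9 genes are named in every comparison, together with the 10 genes most and least like Glul in its distribution and, of each list, the genes past 2-fold and the 3 with most UMIs, apart from some genes that are not reported here. Oat-high, the Cyp2e1 groups and the mitochondrial split were added after the values were seen. Alternatives changed the depth range, thinning, weighting, doublets, mitochondrial limit, clusters, subtraction of the low-depth profile, the highest barcode, the Glul threshold and the CPM minimum.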

Additional observations from a re-analysis of the deposited data

How the results depend on the processing

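Of 605 single-gene ratios under 15 alternatives, 433 stayed within the counting interval of the reported ratio, 168 moved outside it without turning, and 4 turned, meaning that a reported ratio whose interval lay wholly on a single side of 1 came to lie on the other. Counting every ratio that crossed 1, also those whose interval had included it, there were 34. The 4 were ratios of HKO over WT inside Glul-high barcodes: Cyp2e1 became 1.27 with barcodes of 5000 to 20000 UMIs, 1.32 with Glul-high from 3 thinned UMIs and 1.04 with Slc1a2-high barcodes, and Cyp1a2 became 1.43 from 3 thinned UMIs. Oat kept its direction in every alternative run, between 3.12 and 4.96 over all hepatocyte barcodes, 1.67 and 3.33 inside Glul-high and 2.51 and 3.31 outside. Glul outside Glul-high ran from 0.353 to 0.809. Inside Glul-high, Lgr5 ran from 0.684 to 1.82, Axin2 from 0.547 to 2.19, Tbx3 from 0.976 to 1.75, Slc1a2 from 1.23 to 2.24 and Rhbg from 0.836 to 1.57; the highest Lgr5 ratio came from thinned UMIs, those of Axin2 and Tbx3 from barcodes of 5000 to 20000 UMIs, and those of Slc1a2 and Rhbg from 3 thinned Glul UMIs.

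The Glul-high share became 3.89% in HKO with at least 10000 UMIs, and 3.90% in WT and 6.10% in HKO from 3 thinned UMIs. The number of the 9 genes at least 2-fold higher in HKO inside Glul-high, reported as 0, was 1 with at least 10000 UMIs, 1 without the highest barcode, 2 with 5000 to 20000 UMIs and 3 from 3 thinned UMIs. Outside Glul-high, reported as 2, it was 1 with a mitochondrial maximum of 25%, with the low-depth profile subtracted, from 3 or 10 thinned UMIs, and with a mitochondrial share of at least 5%. With thinned UMIs it was 3. Over all hepatocyte barcodes, reported as 4, it was 2 with a mitochondrial share of at least 5%, 3 with at least 10000 UMIs, with the low-depth profile subtracted or without clusters 0 and 5, and 6 with 5000 to 20000 UMIs. The causes were not tested. Slc1a2-high barcodes, the mitochondrial share of at least 5% and leaving out clusters 0 and 5 were chosen after seeing the data.

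The number of all genes past 2-fold depended on the CPM minimum. Over all hepatocyte barcodes it was 27 higher and 62 lower at 10 CPM, 146 and 168 at 1 CPM, and 13 and 29 at 50 CPM. Inside Glul-high it was 499 and 313, then 1670 and 1342, and 117 and 61. Outside it was 25 and 68, then 144 and 178, and 11 and 29. For Glul-high over other barcodes, genes past 2-fold higher numbered 293, 958 and 126 in WT and 319, 1120 and 119 in HKO. No paired analysis was possible because each genotype had 1 library and no result came from a test. Depth limits Axin2 and Rhbg most, and the WT Glul-high class rests on 31 barcodes.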

Other observations

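Genes of Wnt ligands and R-spondins were read in the other cells of the suspension. Their action on the hepatocytes was not tested. In clusters with endothelial markers (188 WT and 286 HKO barcodes), Rspo3, which encodes R-spondin 3, was 74.6 CPM (65.0 to 85.2) in WT and 143 CPM (131 to 156) in HKO. Wnt2 was 39.3 CPM (32.5 to 47.2) and 50.2 CPM (43.0 to 58.2). Wnt4 was 14.0 and 24.2 CPM, and Wls, which carries Wnt proteins to the cell surface, 67.7 and 102 CPM. Wnt9b had only 10 and 5 UMIs (3.42 and 1.44 CPM). In hepatocyte barcodes Rspo3 was 0.227 and 0.196 CPM. The endothelial clusters differ in makeup between the libraries, some of them with stellate or macrophage markers, so these levels are not those of a single cell type. Glul in the same clusters was 195 and 324 CPM, next to 185 and 324 CPM in low-depth droplets.

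Among the 25 other perivenous genes, Cyp7a1, the rate-limiting enzyme of bile acid synthesis, was 19.9 CPM in WT hepatocyte barcodes and 71.9 CPM in HKO (3.62, 3.34 to 3.93). Its ratio was 2.55 (2.06 to 3.18) inside Glul-high barcodes and 3.27 (2.98 to 3.57) outside. Lhpp was 6.69 and 17.5 CPM (2.61, 2.24 to 3.04), and its ratio inside Glul-high barcodes was 1.67 (1.30 to 2.14). Blvrb, a biliverdin reductase, was past 2-fold only inside Glul-high barcodes (225 and 488 CPM, 2.16, 1.82 to 2.59). The 3 genes of the list with most UMIs were Car3 (2011 and 1936 CPM), Aldh1a1 (1114 and 1167 CPM) and Cyp3a11 (666 and 1045 CPM). Over the list, 2 of 23 measured genes (Cyp7a1 and Lhpp) were 2-fold higher in HKO hepatocyte barcodes and none lower, beside 0.382% and 0.876% of all genes. Lhpp met the minimum of 10 CPM through HKO, so little is read from the count. The median log2 ratio was 0.07 against -0.01 for all genes.

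At the other end of the ranking, the genes with the lowest Glul-high ratios in both libraries included Gm36264, Spp1, Grm8, Aldh1b1, Chrm3, Ntrk2, Bdh2, Cps1 and Serpina1e. Aldh1b1, a mitochondrial aldehyde dehydrogenase, had ratios of 0.0909 in WT and 0.0875 in HKO. Periportal genes did not pass 2-fold between the libraries over all hepatocyte barcodes (0 higher and 0 lower of 20, beside 0.382% and 0.876% of all genes), and Cps1 was 2761 CPM in WT and 1973 CPM in HKO. Ass1 was 1148 and 1099 CPM, and Pck1 1490 and 1725 CPM. Inside Glul-high barcodes, Etnppl (29.0 and 13.2 CPM, 0.457, 0.207 to 0.958) and Gldc (51.6 and 24.3 CPM, 0.470, 0.267 to 0.808) were 2-fold lower in HKO, beside 4.39% of all genes.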
